A study of Saccharomyces cerevisiae with 30 samples.

Results

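The 65 genes described here encode proteins of the mitochondrial ribosome of budding yeast, Saccharomyces cerevisiae. They were chosen by name, as genes called MRPL, MRPS, RSM or MRP followed by a number, without MRP8, and make up 65 of the 7127 genes in the deposited table. The large subunit accounts for 37 of them and the small subunit for 28. They lie on 14 of the nuclear chromosomes, 12 of them on chromosome IV.

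The mitochondrial ribosome translates the few proteins that mitochondrial DNA encodes, most of them subunits of the respiratory complexes and of ATP synthase. Nearly all of its own proteins are encoded in the nucleus, made in the cytosol and imported. The exception in yeast is Var1, a small-subunit protein encoded in mitochondrial DNA. Many of the nuclear messages carry a site for Puf3, an RNA-binding protein that regulates the stability, location and translation of messages for mitochondrial proteins.

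RNA was sequenced from 2 strains of haploid MATa cells in the S288c background. In the strain called CEN4* before excision and cen4- after it, lox sites flank the centromere of chromosome IV, which is marked with KanMX, and the recombinase creEBD78, driven by the GDP promoter and marked with LEU2, removes that centromere once beta-estradiol is added. The CEN4 strain carried the same kind of recombinase gene, inserted at ura3, but had no lox sites at its centromere. Both strains carried met15-delta-0 and ura3-delta-0 as well as leu2-delta-0 and the his3-delta-1 allele, grew at 30 °C in YPD, a rich medium with glucose, and received 1 µM beta-estradiol. Samples were taken at 0, 30, 60, 120 and 180 min, which gave 10 groups of 3 libraries from separate experiments. Libraries held 8218002 to 14956813 reads over the genes of the table, as recovered from the deposited values. No culture without beta-estradiol was sampled, so within a strain the effects of time, of growth and of beta-estradiol cannot be told apart, and these libraries do not give the share of cells without the centromere. The a-cell genes MFA1 and STE2 ranged from 1734 to 7051 and from 8500 to 19460 normalised counts over the libraries, while the alpha-cell genes MF(ALPHA)1 and STE3 ranged from 3.55 to 24.6 and from 46.9 to 92.6. Of the other markers, BAR1, MFA2 and ASG7 of a cells had medians of 4556, 7362 and 227, and SAG1 and MF(ALPHA)2 of alpha cells had medians of 505 and 113 normalised counts over the 30 libraries.

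Most of these genes carry a match to the Puf3 site. The letters TGTANATA, where N is any base, were searched on the coding strand in the 250 bases after the stop codon, in the RefSeq sequence of build R64. They occurred after 64 of the 65 genes (98.5%), against 910 of all 5987 genes with such a window (15.2%). The gene without these letters in its window was RSM22, which encodes a methyltransferase-like protein of small-subunit assembly rather than a core ribosomal protein. A single match was found after 50 of the genes and at least 2 after the other 14. The 80 matches began 8 to 238 bases after the stop codon, with a median of 55.5 bases, and 88.8% of them lay within 100 bases, against 66.1% of the 924 matches after other genes. A match is a description of the letters and was not tested for binding.

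The matches are shown for the genes that the later comparisons name most often, with the 8 matching bases in capitals and the bases on either side in lower case, 5′ to 3′ on the strand of the gene.
MRPL10, chrXIV:103078-103101, minus strand: ttctcactTGTACATAccttaaga
MRPL36, nearer match, chrII:483853-483876, minus strand: aacagcctTGTATATAccgcaaca
MRPL36, farther match, chrII:483817-483840, minus strand: tctacataTGTATATAttgacaac
MRPS35, chrVII:830215-830238, plus strand: ttattactTGTACATAaaatattc
RSM25, chrIX:187936-187959, minus strand: aaccaaccTGTATATAattaaaaa
RSM19, nearest match, chrXIV:695027-695050, minus strand: ggatctagTGTATATAgatttcta
RSM19, middle match, chrXIV:694999-695022, minus strand: atatatcaTGTAAATAagatcaag
RSM19, farthest match, chrXIV:694971-694994, minus strand: actcgggcTGTATATAtatatata
RSM24, nearer match, chrIV:813145-813168, minus strand: ggccccccTGTATATAttatgtat
RSM24, farther match, chrIV:813100-813123, minus strand: ctctaaaaTGTACATAgttttagc
MRPL19, nearest match, chrXIV:292091-292114, minus strand: atctattcTGTAAATAtgtatata
MRPL19, middle match, chrXIV:292083-292106, minus strand: tgtaaataTGTATATAagttttaa
MRPL19, farthest match, chrXIV:291946-291969, minus strand: tatttataTGTATATAttgatttg
MRPL16, chrII:146903-146926, plus strand: tgtatacaTGTATATAactattga

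Among the 80 matches the open base was A in 45%, T in 31.2%, C in 22.5% and G in 1.25%. Among the 924 matches after other genes it was A in 26.3%, T in 50.8%, C in 16.5% and G in 6.49%. A cytosine stood 2 bases before the match in 63.8% of the sites of the mitochondrial ribosomal genes, as in those of MRPL10, RSM25 and MRPS35 above, against 23.8% of the other sites. Other genes of mitochondrial translation carried the match in 71.4% to 100% of each list. It followed 11 of 11 other mitoribosomal protein genes, 13 of 13 mitochondrial tRNA synthetase genes, 7 of 9 translation factor genes, 6 of 8 assembly factor genes and 10 of 14 genes for activators of single mitochondrial messages. It followed 6 of 35 nuclear genes of oxidative phosphorylation and 8 of 138 cytosolic ribosomal protein genes. The latter were taken by name alone, as RPL, RPS or RPP with a number, which can take in a gene of another kind.

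**Figure D1:**
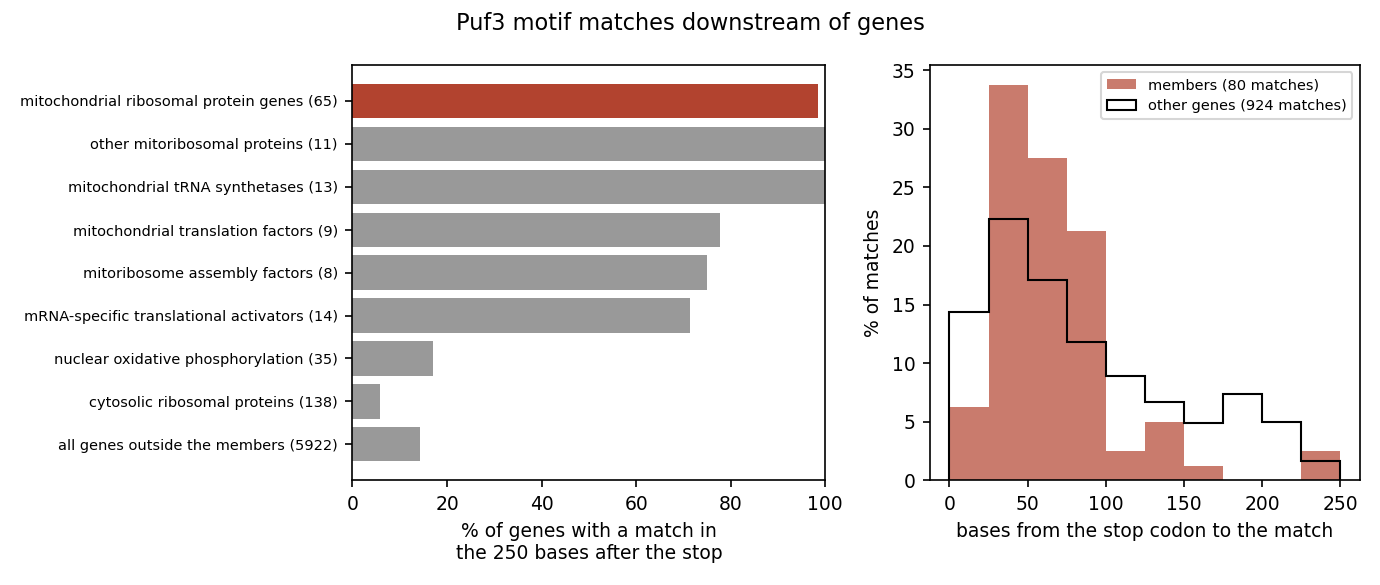
Left, percentage of genes with a TGTANATA match in the 250 bases after the stop codon, for each gene list, with the number of genes in brackets. Right, distance in bases from the stop codon to each match, as a percentage of the matches, for the mitochondrial ribosomal protein genes (filled, 80 matches) and all other genes (outline, 924 matches). The mitochondrial ribosomal genes reach 98.5%, against 14.3% of the genes outside them, and 88.8% of their matches lie within 100 bases.

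Each of 4 promoter motifs searched was found in a smaller share of these genes than of all genes. In the window from 250 bases before to 50 bases after the coding start, on both strands, the core of the ribosome biogenesis element RRPE, AAATTTT, occurred in 16.9% of the 65 genes and 23.2% of all genes. The PAC element GATGAG, another ribosome biogenesis motif, occurred in 16.9% and 20.4%, and the stress element AGGGG in 15.4% and 21.6%. The box CCAAT, read by the respiratory activator Hap2/3/4/5, occurred in 41.5% and 43.3%. The deposited table gives a promoter class, and of the 60 genes that had one, 6 had a TATA box (10%) and the other 54 a TATA-like element. The TATA box class held 17.8% of the 4171 tested genes with a class.

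Of the 65 genes, 63 passed the filter of a mean of at least 10 normalised counts, and their means ran from 302.6 to 2168. The 2 that did not pass both encode large-subunit proteins. MRPL38 (YKL170W, chromosome XI, 130634 to 131050) had 0 to 3 reads in a library and 25 reads in all. MRPL51 (YPR100W, chromosome XVI, 729791 to 730213) had 1 to 16 reads in a library and 150 in all. Each is overlapped by a dubious reading frame, YKL169C for MRPL38 and YPR099C for MRPL51, and these frames had 7 and 11 reads in all. YPR099C shares 323 bases with MRPL51 on the opposite strand. The read counter and its strand setting are not given in the sources used here, and the part of the overlap in these low values was not tested. VAR1, the mitochondrially encoded member of the ribosome, was listed at 0 in all 30 libraries, and 3 reads make up 3.65e-05% of the shallowest library. The whole mitochondrial genome had only 47 to 1024 reads in a library, so this value says little about the expression of VAR1.

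Relative to coding length, the levels of the tested genes spanned 13.2-fold. Their mean level over all libraries had a median of 1125 normalised counts per kb and ran from 355.7 to 4693, and 52 of the 63 lay within 2-fold of that median. The large-subunit genes had a median of 1125 per kb and the small-subunit genes one of 1155, against 575.4 for all tested genes with a coding length and 30780 for the cytosolic ribosomal protein genes. The highest per kb were MRPS12, whose protein is part of the decoding centre (4693 per kb), MRPL39 (3452 per kb), and RSM19 (3127 per kb), all 3 with counterparts in bacterial ribosomes. MRPS12 and RSM19 are neighbours on chromosome XIV, at 694361 to 694822 and 695052 to 695327 on the minus strand. The lowest tested genes were MRPL9 (555.6 per kb), RSM7 (442.6 per kb) and RSM22 (355.7 per kb). MRPL9 and RSM7 are overlapped by the dubious frames YGR219W and YJR114W. MRPL19, with 113 bases shared with YNL184C on the same strand, was sixth from the bottom at 634 per kb. MRP4, which shares 2 bases with YHL005C, had 1027 per kb and was number 26 from the bottom. The values of the overlapped genes are uncertain, and the part of the overlap in them was not tested.

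**Figure D2:**
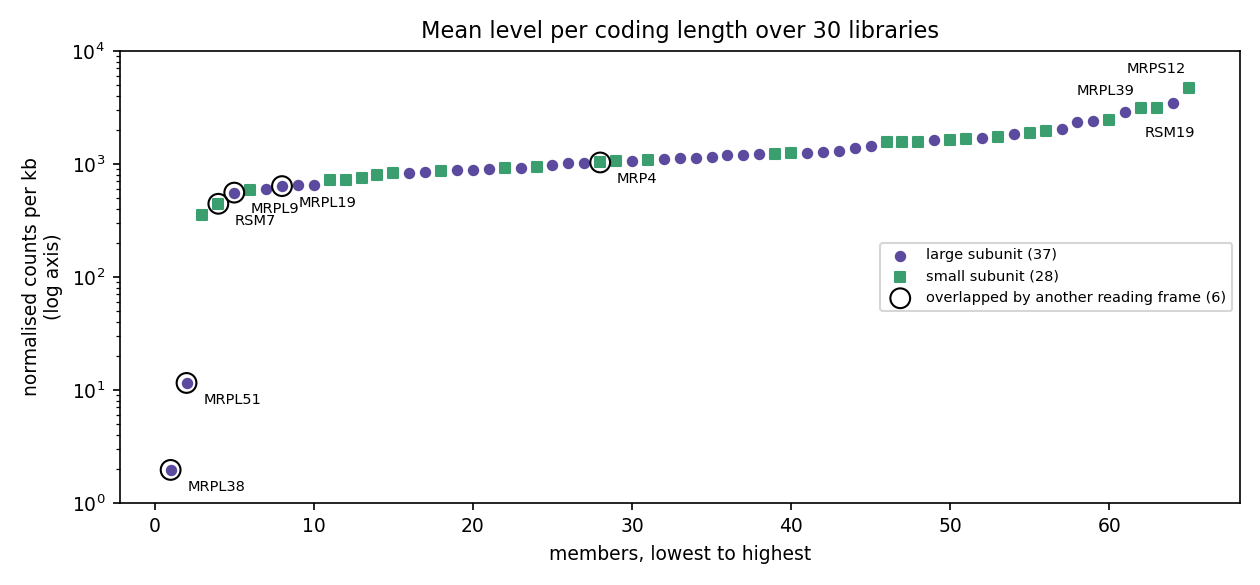
Mean level of each of the 65 mitochondrial ribosomal protein genes over 30 libraries, in normalised counts per kb of coding sequence on a log axis, ordered from lowest to highest, with the subunit by symbol and a ring around the 6 genes that another reading frame overlaps. MRPL38 and MRPL51 stand far below the other 63 genes, which lie between 355.7 and 4693.

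Before beta-estradiol the strains differed little in these genes. Values below are log2 differences from limma on log2(value + 1), called at a Benjamini-Hochberg adjusted p below 0.05 over all 5948 tested genes. Of the 63 genes, at 0 min 1 was higher and 3 were lower in CEN4* than in CEN4 cells, with a median of -0.05, while 8.83% of all tested genes stood higher and 7.06% lower (median -0.00). With all libraries instead brought to 1 common read total (called equal library totals below), the median of the members was 0.00 and that of all genes 0.05, and no member was lower, against 3.61% of all genes (15.9% were higher), so the direction of this small difference depends on the scaling.

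MRPL35, a mitochondria-specific large-subunit protein, had 613, 685 and 677 normalised counts in CEN4* cells and 618, 536 and 576 in CEN4 cells at 0 min (0.19 ± 0.06 SE, limma adjusted p = 0.0160). RSM26, a mitochondria-specific small-subunit protein, had 774, 705 and 732 in CEN4* cells and 807, 848 and 817 in CEN4 cells (-0.16 ± 0.05 SE, limma adjusted p = 0.0123). The groups did not overlap for RSM26 but did for MRPL35. MRPL33 (-0.18, limma adjusted p = 0.0495) and MRPS18 (-0.17, limma adjusted p = 0.0244), both with bacterial counterparts, were the other 2 lower genes, and their groups overlapped. All 4 calls were lost when 1 of certain 0 min libraries was left out.

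After beta-estradiol, every tested mitochondrial ribosomal protein gene rose in both strains. At 180 min against 0 min, 63 of 63 were higher in cen4- cells, with a median log2 change of 0.45 and a range of 0.13 to 0.93, and 63 of 63 were higher in CEN4 cells, with a median of 0.52 and a range of 0.15 to 0.89. Over all tested genes, 37.5% rose and 37.7% fell in cen4- cells at 180 min, and 36% rose and 35.2% fell in CEN4 cells, with medians of -0.00 and 0.00. Under the deposited scaling no member rose 2-fold. In each of the 63 genes and in both strains, all 3 libraries at 180 min lay above all 3 at 0 min, which held for 39% of all tested genes in the excised strain and 36.9% in CEN4. With equal library totals, the medians at 180 min were 0.76 and 0.73 for the members and 0.31 and 0.21 for all genes, in cen4- and CEN4 cells. In that setting 3 of the 63 members in cen4- cells and 4 in CEN4 cells rose at least 2-fold. Of all 5948 tested genes, 773 in cen4- cells and 486 in CEN4 cells did so.

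Most of the rise came in the first 30 min. In cen4- cells 60 of 63 genes were higher at 30 min (median 0.28), 57 at 60 min (0.29), 63 at 120 min (0.42) and 63 at 180 min. In CEN4 cells 60 were higher at 30 min (median 0.34), 57 at 60 min (0.26), 62 at 120 min (0.49) and 63 at 180 min. No member was lower at any time by limma, by edgeR or by DESeq2, and none at an unadjusted p below 0.05. Of all tested genes in cen4- cells, 32.1% were higher and 30% lower at 30 min, 28.3% higher with 28.2% lower at 60 min, then 36.4% higher with 35.6% lower at 120 min. In CEN4 cells 33.6% were higher and 30.1% lower at 30 min, 28.7% higher with 28.4% lower at 60 min, then 35.2% higher with 35.4% lower at 120 min. Between 30 and 60 min the median step was -0.00 in the cen4- strain and -0.06 in CEN4, between 60 and 120 min it was 0.13 and 0.21, and between 120 and 180 min 0.03 and 0.06. CEN4 replicate 1 at 60 min stood apart, with 0.446% of its reads in the 65 genes against 0.469% and 0.470% in the other two, and the CEN4 median at 60 min was 0.31 without it.

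**Figure D3:**
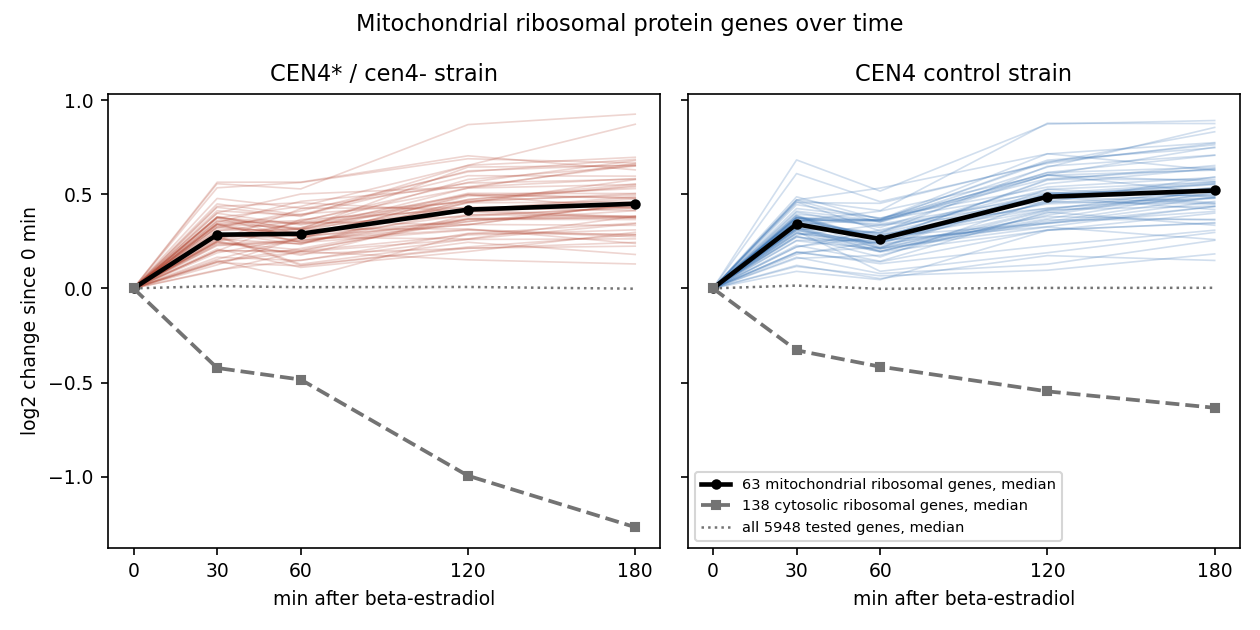
Log2 change since 0 min at 30, 60, 120 and 180 min after beta-estradiol in the CEN4*/cen4- strain (left) and the CEN4 control strain (right). Thin lines are the 63 tested mitochondrial ribosomal protein genes and the heavy line their median, with the medians of the 138 cytosolic ribosomal protein genes (dashed) and of all 5948 tested genes (dotted). The members' median reaches 0.45 in cen4- cells and 0.52 in CEN4 cells at 180 min.

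The genes that rose most in cen4- cells were MRPL19, MRPL16 and MRPL7, large-subunit proteins with bacterial counterparts. MRPL19 had 356, 423 and 337 normalised counts in cen4- cells at 180 min and 212, 206 and 169 in CEN4* cells at 0 min (0.93 ± 0.09 SE, limma adjusted p = 4.41e-14). MRPL16 had 990.4, 1017 and 987 at 180 min and 589, 520.5 and 529 at 0 min in this strain (0.87 ± 0.05 SE, limma adjusted p = 1.48e-22). MRPL7, on chromosome IV, had 951, 1036.5 and 1035 at 180 min and 625, 592 and 647 at 0 min (0.70 ± 0.06 SE, limma adjusted p = 2.24e-17). The groups were apart for each of them, although MRPL19 is overlapped by YNL184C, and in CEN4 cells the same genes rose by 0.77, 0.75 and 0.56.

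In CEN4 cells RSM19, MRPL10 and MRPS17 rose most, again genes for proteins with bacterial counterparts. RSM19, a small-subunit protein, had 1138, 1081 and 1094 normalised counts in CEN4 cells at 180 min and 582, 592 and 611 at 0 min (0.89 ± 0.06 SE, limma adjusted p = 1.95e-22). MRPL10 had 1412.5, 1383 and 1261 at 180 min and 688, 777 and 746 at 0 min (0.88 ± 0.05 SE, limma adjusted p = 1.28e-23). MRPS17, of the small subunit, had 972, 1009 and 976 at 180 min and 515, 579.6 and 541 at 0 min (0.85 ± 0.05 SE, limma adjusted p = 8.23e-22). The 180 min libraries all stood above the 0 min libraries, and in the cen4- strain these genes rose by 0.63, 0.48 and 0.66.

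The 2 subunits rose alike in size. The 35 tested large-subunit genes had a median change at 180 min of 0.43 in cen4- cells and 0.53 in CEN4 cells, and the 28 small-subunit genes had medians of 0.49 and 0.49. Genes with bacterial counterparts and mitochondria-specific genes had medians of 0.44 and 0.37 in the large subunit and 0.53 and 0.49 in the small subunit in cen4- cells. In CEN4 cells these medians were 0.55 and 0.48 in the large subunit and 0.51 and 0.46 in the small subunit. Genes with 2 or 3 Puf3 matches had medians of 0.55 in cen4- cells and 0.59 in CEN4 cells, and the 48 tested genes with 1 match had 0.43 and 0.49. RSM22, without a match, rose by 0.45 and 0.43, near the group's median in cen4- cells. Among the 829 tested genes outside the group that had a match, 418 rose and 247 fell in the cen4- strain (median 0.13), and 413 rose and 225 fell in CEN4 (median 0.14). The 829 include the other genes of mitochondrial translation that had a match. Of all tested genes 37.5% rose and 37.7% fell in the cen4- strain, and 36% rose and 35.2% fell in CEN4. These subsets were described and not tested against each other.

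Summed over the 65 genes, the level rose in every group after 0 min. The sum was 40236 ± 123, 49442 ± 262, 49460 ± 207, 54321 ± 664 and 55509 ± 215 normalised counts at 0, 30, 60, 120 and 180 min in CEN4*/cen4- cells (SD, n = 3 each). In CEN4 cells it was 41698 ± 584, 52654 ± 653, 50452 ± 1220, 58384 ± 1432 and 60647 ± 127 (SD, n = 3 each). As a share of the library's reads, the genes took 0.342%, 0.463%, 0.473%, 0.560% and 0.586% in CEN4*/cen4- cells over the 5 times and 0.341%, 0.468%, 0.462%, 0.546% and 0.573% in CEN4 cells. At 180 min the normalised sum was thus lower in cen4- than in CEN4 cells while the share of reads was higher. The deposited scaling sets each library by its median gene, and the share sets it by all reads, including those of the abundant cytosolic ribosomal protein genes.

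**Figure D4:**
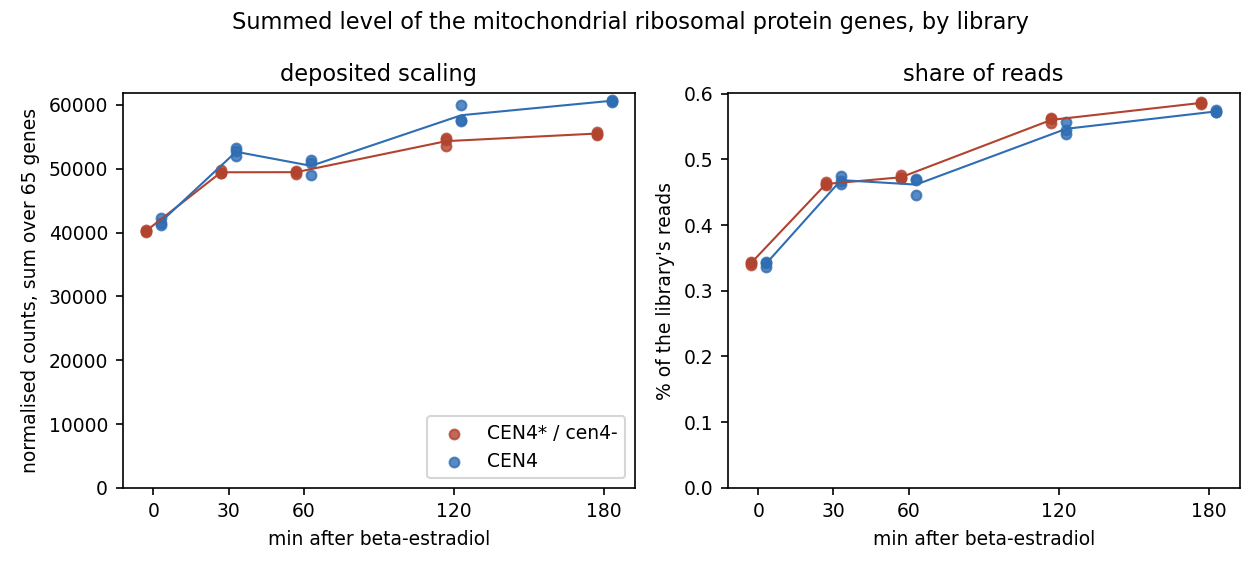
Summed level of the 65 mitochondrial ribosomal protein genes in each of 30 libraries at 0, 30, 60, 120 and 180 min, as normalised counts (left) and as a percentage of the library's reads (right), with lines through the means of 3 libraries. At 180 min the cen4- libraries lie below the CEN4 libraries on the left (means 55509 and 60647) and above them on the right (0.586% and 0.573%).

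The other mitoribosomal protein genes, the mitochondrial tRNA synthetase genes and the nuclear genes of oxidative phosphorylation all rose with time, most cytosolic ribosomal protein genes fell, and the other lists rose in part. The shares of all genes that rose and fell by 180 min, given above, were 37.5% and 37.7% in cen4- cells and 36% and 35.2% in CEN4 cells. All 11 other mitoribosomal protein genes rose by 180 min, with medians of 0.43 in cen4- cells and 0.47 in CEN4 cells, and so did all 13 mitochondrial tRNA synthetase genes (0.51 and 0.47). Of 9 tested translation factor genes 7 rose in cen4- (median 0.72) and 8 in CEN4 cells (0.50). Of 14 genes for activators of single mitochondrial messages 9 and 8 rose (0.22 and 0.21). All 35 nuclear genes of oxidative phosphorylation rose in each strain (0.71 and 0.82). Of 8 tested assembly factor genes 2 rose and 1, MRM2, fell in cen4- cells (median 0.07), and 4 rose and none fell in CEN4 cells (median 0.12). The 138 genes taken by name as cytosolic ribosomal protein genes all fell in the cen4- strain (median -1.27). In CEN4 133 of them fell and 1 rose (median -0.63).

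The excision effect, taken as the cen4- strain's change from its 0 min level less the same change in CEN4, was small in the mitochondrial ribosomal genes at all times, and its median direction at 120 and 180 min depended on the scaling. The strains also differ in KanMX and in the recombinase insert described above, which this contrast cannot tell apart from excision. At 30 and 60 min limma called no member, with medians of -0.03 and 0.02. At an unadjusted p below 0.05, 1 member was higher and 5 were lower at 30 min, and 3 were higher and 2 lower at 60 min. At that threshold 5.31% of all genes were higher and 8.1% lower at 30 min, and 5.62% higher and 8.59% lower at 60 min. By adjusted p edgeR and DESeq2 called no member at either time. Of all tested genes by adjusted p in limma, 0.841% were higher and 1.01% lower at the earlier of these times, and 0.891% higher and 2.02% lower at the later. At 120 min 2 members were higher and 8 lower (median -0.04), while 11.9% of all tested genes were higher and 14.2% lower. At 180 min 1 was higher and 14 were lower, with a median of -0.07, an interquartile range of -0.16 to 0.03 and a range of -0.39 to 0.19. At that time 19.8% of all tested genes were higher and 22.5% lower, so the share of members called lower was near that of all genes, and the share called higher was below it. The effect lay within 0.25 of 0 in 58 of the 63 genes, and the median standard error was 0.08. With equal library totals the medians of the members were 0.04 at both times, with 5 members higher and 3 lower at 120 min, then 9 higher and 4 lower at 180 min. Of all genes 23.2% were then higher and 8.42% lower at 120 min, and 31.2% higher and 13.2% lower at 180 min. The median of all genes was then 0.08 at 120 min and 0.09 at 180 min, against -0.01 at both in the deposited scaling. Under either scaling the members' median thus lay below that of all genes.

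The strains at 180 min were also compared directly. Of the 63 genes, 3 were higher and 29 lower in cen4- than in CEN4 cells (median -0.10), against 30.9% higher and 33.2% lower among all tested genes (median -0.01). With equal library totals, an alternative added for this comparison after the data were seen, 18 were higher and 12 lower, against 50.7% higher and 18.3% lower among all genes, with a median of 0.06 against 0.15 for all genes. Of the 14 genes with a lower excision effect at 180 min, 13 were also lower in this direct comparison. Both comparisons use the same libraries at 180 min, so this overlap is largely built in and is not separate support. All 14 had risen since 0 min in cen4- cells, as had every tested member. Under the deposited scaling each of the 14 thus rose in both strains and by less in the excised one.

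MRPL10 (YNL284C, chromosome XIV, 103134 to 104102), a large-subunit protein with a bacterial counterpart, had the lowest excision effect. It had 1017, 994 and 926 normalised counts in cen4- cells at 180 min, against 1412.5, 1383 and 1261 in CEN4 cells of that time. At 0 min it had 710.2, 704 and 689 in CEN4* cells and 688, 777 and 746 in CEN4 cells. The strains overlapped at 0 min and were apart at 180 min, and the effect was -0.39 ± 0.07 (SE, limma adjusted p = 8.32e-06) at 180 min and -0.38 (limma adjusted p = 3.76e-05) at 120 min. MRPL36 (YBR122C, chromosome II, 483970 to 484503), also with a bacterial counterpart, had 1178, 1135 and 1182 in cen4- cells at 180 min and 1388, 1432 and 1411 in CEN4 cells. At 0 min it had 832, 814 and 834 in CEN4* cells and 809, 795 and 773 in CEN4 cells, so the order of the strains was the other way round (-0.34 ± 0.06 SE, limma adjusted p = 1.52e-05).

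Small-subunit genes made up the other 3 of the lowest 5. MRPS35 (YGR165W, chromosome VII, 829116 to 830153), a mitochondria-specific protein, had 1150.2, 1115 and 1162 normalised counts in cen4- cells and 1463, 1558 and 1498 in CEN4 cells at 180 min. At 0 min it had 891, 872 and 864 in CEN4* cells and 801, 1016.5 and 964 in CEN4 cells (-0.32 ± 0.08 SE, limma adjusted p = 0.00166). The strains were apart at 180 min and overlapped at 0 min. RSM25 (YIL093C, chromosome IX, 187990 to 188784), also mitochondria-specific, had 578, 584 and 550.3 in cen4- cells and 729.6, 768 and 815.5 in CEN4 cells at 180 min. At 0 min it had 504, 462 and 451 in CEN4* cells and 534, 488 and 511 in CEN4 cells (-0.32 ± 0.09 SE, limma adjusted p = 0.00191). RSM19, described above as the gene that rose most in CEN4 cells, had 829, 914 and 879 in cen4- cells at 180 min and 554, 571 and 568 in CEN4* cells at 0 min (-0.26 ± 0.08 SE, limma adjusted p = 0.00479). Its call was lost with equal library totals. At 120 min the lowest were MRPL10, MRPS35 (-0.35, limma adjusted p = 0.00120) and MRPL6 (-0.28, limma adjusted p = 0.00382), whose bacterial counterpart is a large-subunit protein. MRPL6 had 744, 779 and 733 in cen4- cells and 882, 914 and 909 in CEN4 cells at 120 min.

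RSM24 (YDR175C, chromosome IV, 813193 to 814152), a mitochondria-specific small-subunit protein, was the gene with a higher excision effect at 180 min. It had 894, 938 and 884 normalised counts in cen4- cells and 807, 777 and 779 in CEN4 cells at 120 min, and 865, 939.6 and 926 in cen4- cells and 818, 837.5 and 907 in CEN4 cells at 180 min. At 0 min it had 564, 578 and 595 in CEN4* cells and 613, 592 and 655 in CEN4 cells. The strains were apart at 120 min, with an effect of 0.30 ± 0.08 (SE, limma adjusted p = 0.00299), and overlapped at 180 min, with an effect of 0.19 ± 0.08 (SE, limma adjusted p = 0.0482). The call at 180 min was lost in edgeR, in DESeq2, with no filter on low values and without any of 8 single libraries. MRPL3, a mitochondria-specific large-subunit protein on chromosome XIII, was the other gene called higher at 120 min (0.23 ± 0.08 SE, limma adjusted p = 0.0386). It had 1093, 1120.2 and 1021 in cen4- cells and 1050, 953 and 1070.2 in CEN4 cells at 120 min, which overlap, and its call was lost in edgeR, in DESeq2 and without any of 6 single libraries.

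**Figure D5:**
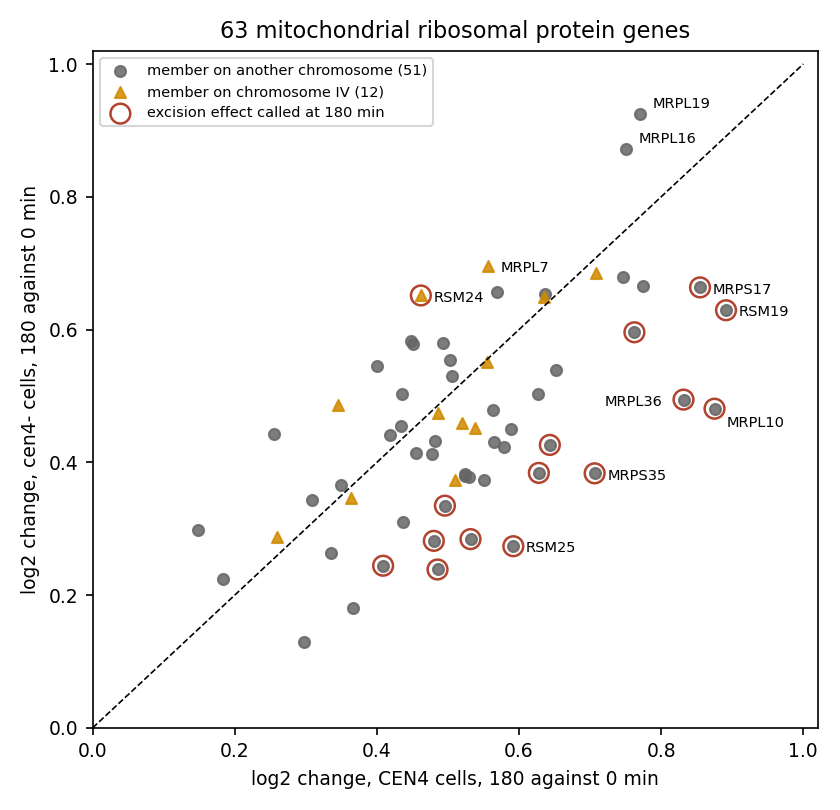
Log2 change from 0 to 180 min in cen4- cells (vertical axis) against that in CEN4 cells (horizontal axis) for the 63 tested genes, with genes on chromosome IV as triangles, genes with a called excision effect at 180 min ringed, and the line of equal change dashed. All points lie above 0 on both axes, 40 lie below the line and 23 above it under the deposited scaling, and 14 of the 15 ringed genes lie below it. With equal library totals the median effect changes sign, to 0.04.

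Across the 63 genes the changes at 180 min in the cen4- and CEN4 strains had a Pearson correlation of 0.61 and a Spearman correlation of 0.57, as a description over genes, which are not independent replicates. The 2 changes rest on separate libraries. Over all 5948 genes the correlations were 0.83 and 0.81, with a wider spread of changes (SD 0.65 and 0.57, against 0.16 and 0.16 in the members).

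The 12 members on chromosome IV, the chromosome whose centromere is removed, had a median excision effect of -0.01 at 180 min, and the other 51 tested members one of -0.11. The gene called higher at that time, RSM24, lay on chromosome IV, and the 14 called lower lay on other chromosomes. Of all tested genes 19.8% were called higher and 22.5% lower. The call of RSM24 was lost in edgeR and in DESeq2, so the split by chromosome rests on an uncertain call. Over all 768 tested genes of chromosome IV the median was 0.14. The difference between these subsets was not tested, and the median of -0.01 changes sign with equal library totals, since that moves the median gene to 0.09. Besides RSM24, the effects at 180 min were 0.14 for RSM28 and for MRPL7, 0.03 for MRP10, 0.01 for MRPS28, -0.00 for MRP1, -0.01 for MRPL11, -0.02 for MRPL35 and MRPL28, -0.06 for RSM10, -0.09 for MRPL1 and -0.14 for MRP20, whose protein sits at the exit of the ribosomal tunnel. In the direct comparison at 180 min under the deposited scaling, the 3 members that were higher in cen4- cells all lay on chromosome IV: MRPL35 (0.18, limma adjusted p = 0.00764), MRPL7 (0.17, limma adjusted p = 0.00638) and RSM28 (0.14, limma adjusted p = 0.0310). MRP20 was lower (-0.13, limma adjusted p = 0.0182). Of all tested genes 30.9% were higher and 33.2% lower in this direct comparison. The members on chromosome IV were not tested against its other genes. MRPL35 was already higher at 0 min. MRPL7 had 951, 1036.5 and 1035 normalised counts in cen4- cells and 882, 915 and 882 in CEN4 cells at 180 min, without overlap.

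The message of PUF3 itself had a lower excision effect. It had 395.5, 404 and 385 normalised counts in cen4- cells and 535, 623 and 486 in CEN4 cells at 180 min, and 481, 428 and 469 in CEN4* cells and 501, 510 and 521.5 in CEN4 cells at 0 min. The strains did not overlap at either time, and the excision effect at 180 min was -0.31 (limma adjusted p = 0.00931). HAP4, the regulated subunit of the respiratory activator, had 1931, 1909 and 1937 in cen4- cells and 1824, 1932 and 1888 in CEN4 cells at 180 min, which overlap, with an effect of 0.02 (limma adjusted p = 0.836). HAP2, a DNA-binding subunit of that activator, had a higher effect (0.53, limma adjusted p = 4.36e-05).

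In further lists, the largest called excision effects at 180 min went both ways for translation factors, tRNA synthetases and activators. Those for assembly factors, other mitoribosomal proteins and oxidative phosphorylation were all lower. Of all tested genes 19.8% were called higher and 22.5% lower. Among the translation factors, the initiation factor gene AIM23 was higher (0.52, limma adjusted p = 7.6e-05) and the release factor gene MRF1 lower (-0.43, limma adjusted p = 2.96e-04). Among the tRNA synthetases, NAM2 for leucine was higher (0.32, limma adjusted p = 8.2e-04) and MSE1 for glutamate lower (-0.45, limma adjusted p = 2.9e-04). Among the activators, PET111, for the message of COX2, was higher (0.33, limma adjusted p = 0.0111) and PET54, for that of COX3, lower (-0.37, limma adjusted p = 3.85e-04). The assembly factor gene MRM1, an rRNA methyltransferase, was lower (-0.30, limma adjusted p = 0.00473), as was the ribosomal protein gene IMG1 (-0.23, limma adjusted p = 0.00887). In oxidative phosphorylation SDH4, a subunit of succinate dehydrogenase, and CYC1, cytochrome c, were lower (-0.50, limma adjusted p = 3.15e-09, and -0.44, limma adjusted p = 2.67e-06), and both had risen since 0 min in cen4- cells, by 0.91 and 0.79.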

How the data were processed

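RNA-seq of 30 libraries was analysed from 1 deposited table. Its signal values are, per the labels, read counts that the authors divided by a DESeq2 size factor. STAR 2.6.1, DESeq2 and build R64 (sacCer3) are named in the submitters' processing notes; the read counter, the annotation release and whether strand was used are not given in the sources used here. Each library's values were divided by its smallest nonzero value, taken as 1 read. This gave whole numbers for 100% of values within 1e-06, with 8218002 to 14956813 reads per library. These totals, and the shares of reads based on them, cover only reads assigned to the genes of the table. Sampling noise and replicate spread both limit precision.

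Main tests used limma 3.58.1 (R 4.3.3; trend, robust; 10 group means, 20 residual degrees of freedom) on log2(value + 1) for 5948 genes (mean value 10 or more), with Benjamini-Hochberg adjustment within a comparison. The pseudocount of 1 understates changes of low genes. edgeR 4.0.16 and DESeq2 1.42.0 on the recovered read counts were alternatives, as were other pseudocounts, filters, equal library totals, the fit of the contrast's groups alone, a replicate block and leaving out each library. The fit was tested on simulated data. The 3 replicates are separate experiments. Chi-square per degree of freedom between replicate libraries was 1.48 to 7.75, so none looked like a repeated sequencing of the same library. That value does not test whether the experiments were separate. Sequences and coordinates are from RefSeq R64, in which all 65 members were found.

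The members, the lists and the tests were chosen with earlier results of these data known. Genes named in the text are the called members with the largest effects (5 in each direction for excision at 180 min, 3 for the other comparisons), the 3 highest and lowest per kb, all on chromosome IV, the 2 largest called excision effects of each further list, PUF3, HAP4 and VAR1; genes named for low counts or overlaps were added after their values were seen.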

Additional observations from a re-analysis of the deposited data

Results flagged for a closer look

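The change since 0 min differed between the cen4- and CEN4 strains, by the interaction term of limma, in 15 of 63 tested mitochondrial ribosomal protein genes at 180 min (1 higher, 14 lower) and in 10 at 120 min (2 higher, 8 lower). Of all tested genes 19.8% were higher and 22.5% lower at 180 min, and 11.9% higher and 14.2% lower at 120 min. Of the members named by rule, at 180 min the log2 difference was -0.39 for MRPL10, -0.34 for MRPL36, -0.32 for MRPS35, -0.32 for RSM25, -0.26 for RSM19 and 0.19 for RSM24. At 120 min it was -0.38 for MRPL10, -0.35 for MRPS35, -0.28 for MRPL6, 0.30 for RSM24 and 0.23 for MRPL3. The calls of RSM24 at 180 min and of MRPL3 at 120 min were lost in edgeR and in DESeq2, and that of RSM19 with equal library totals. All of these genes rose since 0 min in both strains.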

How the results depend on the processing

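The rise of the members since 0 min kept its direction in every alternative and its counts stayed within 1.5 times. Its median changed most with equal library totals, to 0.42, 0.46, 0.70 and 0.76 at 30, 60, 120 and 180 min in cen4- cells and to 0.46, 0.42, 0.68 and 0.73 in CEN4 cells. edgeR gave 0.42 in cen4- cells at 180 min. Leaving out 1 library gave a CEN4 median at 60 min of 0.25 to 0.31. Equal totals reversed the medians of the strain difference at 0 min (0.0048) and of the excision effect at 120 min (0.040) and 180 min (0.037). It gave 0 members lower at 0 min, 5 higher with 3 lower at 120 min, then 9 higher with 4 lower at 180 min. At 0 min 1 was lower by edgeR and 1 by DESeq2, and leaving out 1 library gave 0 to 1 higher and 1 to 5 lower. At 30 min that gave 0 to 1 lower. At 120 min 1 member was higher by edgeR and by DESeq2, 5 were lower by DESeq2 and 4 with the contrast's groups alone, and leaving out 1 library gave 1 to 2 higher and 4 to 8 lower. At 180 min 0 were higher with no filter, by edgeR, by DESeq2 and with the replicate block, and 2 with the contrast's groups alone. Leaving out 1 library gave 0 to 2 higher and 9 to 15 lower at 180 min, with 9 lower without cen4- replicate 3 at 180 min or CEN4 replicate 3 at 0 min. In the direct comparison at 180 min, whose alternatives were added after seeing the data, equal totals gave 18 members higher and 12 lower and reversed the median to 0.058. Of the 4 calls at 0 min, those of MRPL33, MRPS18 and RSM26 were lost with equal totals, and those of MRPL33 and MRPS18 with edgeR and DESeq2. The numbers in the sample titles did not pair the libraries (correlations of deviations -0.105 to 0.116, 2 of 15 over 0.1), and besides RSM24 at 180 min the replicate block ended no named call. The causes were not tested.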

Other observations

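CEN4 replicate 1 at 30 min held 1024 reads of the mitochondrial genome, against 47 to 179 reads in each of the other 29 libraries, with 536 on 21S_RRNA, 147 on 15S_RRNA and 119 on AI1. Its share of reads in the mitochondrial ribosomal protein genes was 0.463%, against 0.475% and 0.467% in the other 2 libraries of that group.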
